A study of Mus musculus with 4 samples.

Results

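The host genes Ripk2, Bbs9, Dhx15 and Zcchc11 each gave an exonic circular RNA (circRNA) that was abundant in total RNA of differentiated C2C12 cells and was not read in RNA prepared by RPAD. C2C12 is an established mouse myoblast line. RPAD strips linear RNA away in steps: RNase R digests it for 30 min, what survives is given a poly(A) tail, and tailed RNA is then pulled out. The study has 2 RPAD libraries and 2 total RNA libraries, all labelled C2C12 and all from cells switched to differentiation medium (2% horse serum), which lets myoblasts fuse into myotubes, and kept there 3 to 4 days; the protocol text for the RNase R step names HeLa RNA instead, and this was not resolved. Nothing in the labels tells if replicate libraries stem from separate cultures, so the spread between them may be technical.

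The hosts were chosen on the reads of these same libraries, and each was then taken as all circles inside its interval of the mm9 genome on its own strand. The files hold no gene symbols, so the names rest on position. The circles found there span chromosome 4 from 16065048 to 16085577 (Ripk2, minus strand), chromosome 9 from 22372149 to 22616987 (Bbs9, plus strand), chromosome 5 from 52557766 to 52576142 (Dhx15, minus strand) and chromosome 4 from 108151478 to 108220775 (Zcchc11, plus strand). The intervals held 38 of the 69136 circles of the series, 13 exonic and 25 intronic. Because the reads in RPAD and in total RNA chose the hosts, that comparison is described here and carries no test.

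A circRNA arises by back-splicing, in which the end of an exon is joined to the start of the same exon or of an exon upstream of it. The closed ring has no free end, and RNase R, an exonuclease that digests from the 3′ end, leaves most rings intact while it degrades linear RNA. An intronic circle is an excised intron, or part of one, that begins at the 5′ splice site. The proteins of the 4 hosts are unrelated. Ripk2 encodes a kinase that relays signals of the NOD receptors to NF-kappaB. Bbs9 encodes a subunit of the BBSome, a complex that carries membrane proteins to and from cilia. Dhx15 encodes a DEAH-box RNA helicase that takes part in taking apart the spliceosome. Zcchc11, whose current symbol is Tut4, encodes an enzyme that adds uridines to the 3′ ends of RNAs, among them the precursors of let-7.

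The RPAD libraries held 150478 and 191246 back-splice reads and the total RNA libraries 38850 and 35981. Values in RPM are the reads of a circle scaled to 1000000 back-splice reads of its library, so each is a share of the library's circular reads and not a level against linear RNA. A count of 0 allows up to 3 reads, which is 19.9 and 15.7 RPM in RPAD 1 and 2 and 77.2 and 83.4 in total RNA 1 and 2. These limits and all intervals below cover counting error only, since PCR copies were not marked. Titin, the giant protein of the sarcomere, served as a check on the muscle label: its locus held 7516 and 7439 exonic reads in RPAD and 2623 and 2643 in total RNA. In such bulk libraries, fewer cells with an RNA and less of it per cell cannot be told apart.

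The 4 lead circles, the exonic circle of each host with most reads in total RNA, had 0 reads in both RPAD libraries. There were 67 exonic circles that reached 20 reads in total RNA 1 and also in total RNA 2, and these are called comparable circles below. Of the 67, 12 (17.9%, exact Clopper-Pearson 95% interval 9.61 to 29.2) had 0 reads in both RPAD libraries, and the 4 lead circles are among these 12 by choice. A further 20 of the 67 were listed in 1 RPAD library and 35 in both. The share at 0 was 29.9% without RPAD 1 and 35.8% without RPAD 2; with the read minimum asked of 1 total RNA library only it was 46.0% without total RNA 1 and 41.3% without total RNA 2. Among all 519 exonic circles listed in both total RNA libraries at any depth, 308 (59.3%) had 0 reads in both RPAD libraries.

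The Ripk2 circle joins the end of exon 5 to the start of exon 2 and lies on chromosome 4 from 16079064 to 16085577. Its 4 exons of 154, 77, 156 and 158 nt, in the order of transcription, make a ring of 545 nt. It had 0 and 0 reads in RPAD 1 and 2, against 147 and 121 reads in total RNA 1 and 2. In RPM the total RNA libraries gave 3784 (95% interval 3198 to 4446) and 3363 (2791 to 4017). These intervals overlap, and the circle stood 12th among 3369 exonic circles of total RNA. At its mean share in total RNA, 538 and 683 reads would have fallen on it in RPAD 1 and 2. These counts give the scale only, since the circle was chosen for its 0 reads in RPAD. For a bound, each group's reads were pooled, with a floor of 3 reads over both RPAD libraries and the total RNA reads as observed. By the counting error of the RPAD zeros alone, the share of the Ripk2 circle was at least 408-fold lower in RPAD than in total RNA. The bound does not cover the loss of well-read circles from 1 RPAD library to the other, which was common (below). Without RPAD 1 the bound was 228-fold and without RPAD 2 it was 180-fold, because the same floor then stands against fewer reads, and the bounds of the other hosts fell in the same proportion.

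Ripk2 gave no other exonic circle. The lead circle held 100% of the exonic reads of the host in both total RNA libraries, with lower limits of 97.5% and 97.0%. The only other circles of the locus were 2 intronic circles of intron 7, of 173 and 125 nt, with 1 read each in total RNA 1. RPAD had 0 reads anywhere in the Ripk2 interval, so this was the only one of the 4 hosts with no circle in either RPAD library.

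The Bbs9 circle lies on chromosome 9 from 22448189 to 22483508 and spans 35320 nt of the genome. It had 0 reads in RPAD 1 and 0 in RPAD 2, against 67 reads in total RNA 1 and 66 in total RNA 2. That is 1725 RPM (95% interval 1337 to 2190) in total RNA 1 and 1834 (1419 to 2333) in total RNA 2, and the circle stood 23rd among exonic circles of total RNA. Of the 4 lead circles it differed least between the total RNA libraries, at 1779 ± 77.6 RPM (SD, n = 2). By the counting error of the RPAD zeros alone, its share was at least 202-fold lower in RPAD. The 2 total RNA files describe the same junction with different transcript models: 7 exons and 786 nt in total RNA 1, and 6 exons and 771 nt in total RNA 2. The models differ by an exon of 15 nt, and a back-splice read across the junction does not show whether the ring holds it. Of 778 exonic circles listed in 2 or more libraries, 85 carried more than 1 set of exon sizes.

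Bbs9 had more kinds of exonic circle in total RNA 2 than in total RNA 1. Total RNA 2 listed 5, and 4 of them began at the same exon start as the lead circle and held 98 of the 99 exonic reads. Besides the lead circle these were a circle of 4 exons (445 nt, 18 reads), one of 8 exons (1177 nt, 12 reads) and one of 5 exons (618 nt, 2 reads). Total RNA 1 had 0 reads on each of these 3. It listed instead a circle of 9 exons and 917 nt with 5 reads, which ends where the lead circle ends and begins upstream of it. The lead circle therefore took 93.1% (95% interval 84.5 to 97.7) of the exonic reads of Bbs9 in total RNA 1 and 66.7% (56.5 to 75.8) in total RNA 2, and the intervals do not overlap. Of exonic circles with 10 to 19 reads in total RNA 2, 55.8% had 0 reads in total RNA 1, and of those with 2 to 9 reads 72.4% did, so a count of 0 there was common at the depth of these 3 circles.

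RPAD 2 held 1 exonic circle of Bbs9, which total RNA did not list. It is a single exon of 141 nt, on chromosome 9 from 22459669 to 22459809, and had 18 reads in RPAD 2 and 0 in RPAD 1, against 0 in both total RNA libraries. The exon is also one of those inside the lead circle, but neither end of the small circle is an end of the lead circle. Its 18 reads lie near the middle of RPAD 2, where the median exonic circle had 14 reads. Its junction carried a score of 1 in the file, where the lead circle had 0; the sources used here do not say what the score measures.

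Bbs9 also gave intronic circles, in total RNA 2 alone. All 15 came from the intron directly downstream of the lead circle, which is 114686 nt long in the annotation of the file. Each began at the first base of that intron, at the 5′ splice site that follows the last exon of the lead circle, and ended 103 to 155 nt further on. Together they had 21 reads, with 3 reads at most on one circle, and 11 of the 15 had 1 read. This put the intron 168th of the 3246 introns listed in total RNA 2, where the median was 3 reads. RPAD 1, RPAD 2 and total RNA 1 had 0 reads there. Of introns with at least 20 intronic reads in total RNA 2, 29.1% had 0 reads in total RNA 1.

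The Dhx15 circle joins exon 3 back to exon 2 and lies on chromosome 5 from 52572221 to 52576142. Its exons of 436 and 194 nt make a ring of 630 nt. It had 0 and 0 reads in RPAD 1 and 2, against 38 and 50 reads in total RNA 1 and 2. These are 978 RPM (95% interval 692 to 1342) and 1390 (1032 to 1832) in total RNA, with overlapping intervals. It was the lowest of the 4 lead circles, 44th among exonic circles of total RNA. By the counting error of the RPAD zeros alone, it was at least 134-fold lower in RPAD. Dhx15 gave no other exonic circle in any library.

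Dhx15 was listed in RPAD 1 through an intron instead. RPAD 1 had 8 intronic circles of intron 6, with 21 reads in all, against 0 reads in RPAD 2 and in both total RNA libraries. All 8 began at the 5′ splice site and were 113 to 174 nt long, within an intron of 4085 nt. The one with most reads (6) was the shortest, 113 nt, on chromosome 5 from 52557827 to 52557939. This intron lies downstream of the lead circle and does not flank it. The median intron listed in RPAD 1 had 19 intronic reads, so 21 is near the middle, and 74.0% of introns with at least 20 reads in RPAD 1 had 0 in RPAD 2.

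The Zcchc11 circle is a single large exon, exon 3 of its transcript models, on chromosome 4 from 108151478 to 108152346. The ring is 869 nt long. It had 0 reads in RPAD 1 and 0 in RPAD 2, against 49 reads in total RNA 1 and 81 in total RNA 2. In total RNA this was 1261 (95% interval 933 to 1667) and 2251 (1788 to 2797) RPM, so the total RNA libraries differed beyond counting error. The circle stood 26th among exonic circles of total RNA. By the counting error of the RPAD zeros alone, it was at least 198-fold lower in RPAD.

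A second Zcchc11 circle, which begins at the same exon start, was read in RPAD 1. It joins exons 3 and 4 into 1033 nt, on chromosome 4 from 108151478 to 108159222. It had 270 and 0 reads in RPAD 1 and 2, against 11 and 15 reads in total RNA 1 and 2. In RPAD 1 this was 1794 RPM and the 53rd most read of 499 exonic circles; in total RNA it was 283 and 417 RPM. Another circle with this start, of exons 3 to 5 and 1150 nt, had 0 reads in both RPAD libraries and 1 and 2 reads in total RNA.

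The Zcchc11 circles that begin at exon 3 are set side by side here as a description with no test. The circle of exon 3 alone is the lead circle, chosen for its 0 reads in RPAD, so its share there follows from that choice and nothing is read from the difference. The circle of exon 3 alone took 0% of 270 reads in RPAD 1, where a count of 0 allows up to 1.11%, against 80.3% (95% interval 68.2 to 89.4) of 61 reads in total RNA 1 and 82.7% (73.7 to 89.6) of 98 in total RNA 2. The circle of exons 3 and 4 took 100% in RPAD 1, against 18% (9.36 to 30) and 15.3% (8.83 to 24) in total RNA 1 and 2. The total RNA libraries thus differed little in this makeup. RPAD 2 had 0 reads on any Zcchc11 circle, so the makeup in RPAD rests on 1 library.

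Summed over its exonic circles, Zcchc11 had 1794 and 0 RPM in RPAD 1 and 2, against 1596 and 2724 in total RNA 1 and 2. RPAD 1 thus lay between the total RNA libraries, although the lead circle had no read there. For the other 3 hosts the exonic sum in each RPAD library was below both total RNA libraries. The only other circle of the Zcchc11 interval joined 18 exons, 9 to 26, and had 1 read in total RNA 1.

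**Figure D1:**
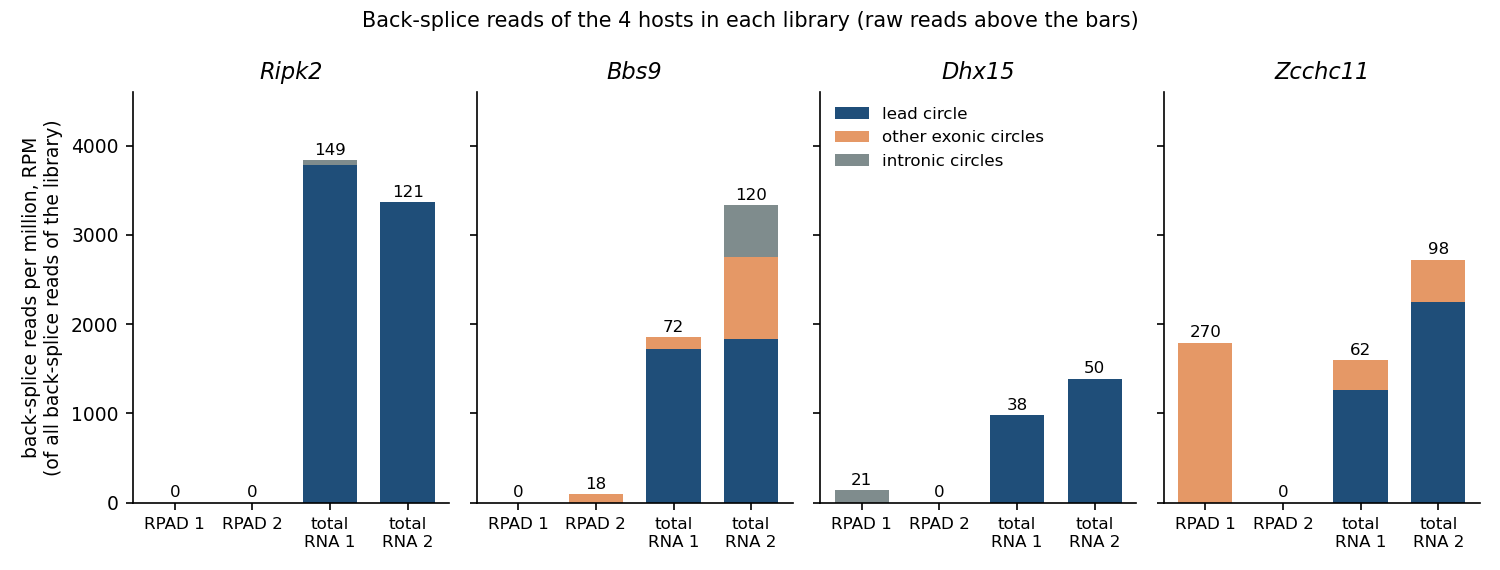
Back-splice RPM of each host (vertical axis) in RPAD 1, RPAD 2, total RNA 1 and total RNA 2 (horizontal axis), with the lead circle, other exonic circles and intronic circles stacked and the raw reads of the locus above each bar. The lead circle appears in the total RNA bars alone, and RPAD 1 reaches 270 reads at Zcchc11 with other exonic circles only.

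**Figure D2:**
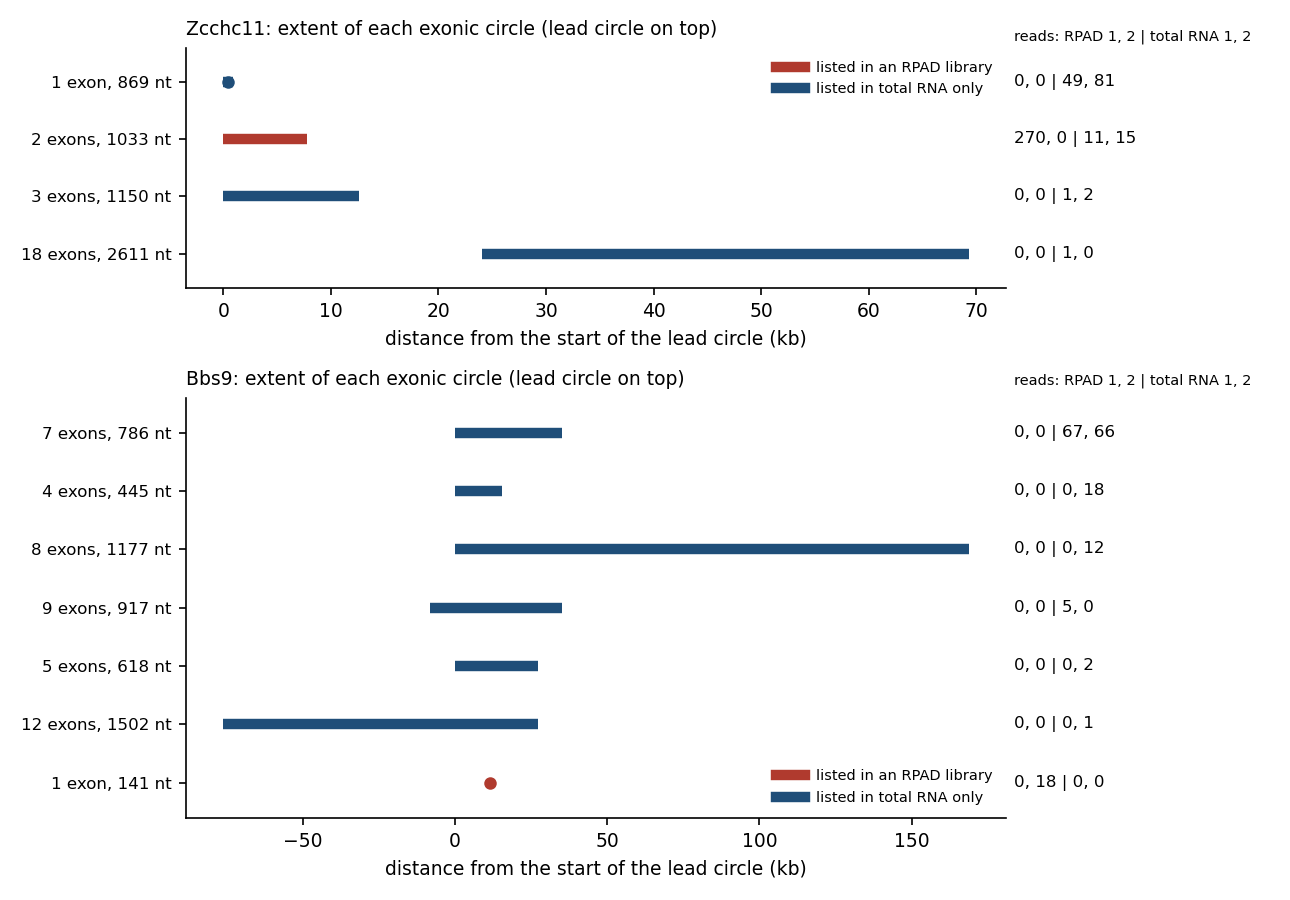
Extent of each exonic circle of Zcchc11 (above) and Bbs9 (below) along the genome, in kb from the start of the lead circle, with its reads in the 4 libraries at the right. Red marks circles listed in an RPAD library; the red Zcchc11 circle (270 reads in RPAD 1) shares its start with the lead circle, and the red Bbs9 circle (18 reads in RPAD 2) lies inside the lead circle.

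In total RNA the order of the lead circles by mean RPM was Ripk2 at 3573 ± 298, Bbs9 at 1779 ± 77.6, Zcchc11 at 1756 ± 700 and Dhx15 at 1184 ± 291 (SD, n = 2 each). Ripk2 was above the other 3 in each total RNA library. Bbs9 and Zcchc11 changed places between the libraries, and their means differ by far less than their spread. Zcchc11 was above Dhx15 in each total RNA library (1261 against 978 RPM and 2251 against 1390), though their means are within their spread of each other.

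Other abundant circles had the same pattern. The circle nearest to the Ripk2 and Bbs9 lead circles over the 4 libraries, by Euclidean distance of log2(RPM + 1), joins exons 1 to 3 of a transcript on chromosome 6, from 136821688 to 136824326 (distance 0.73 and 0.71). It begins at exon 1 and has no annotated upstream intron, alone among the 67 comparable circles. It had 0 reads in both RPAD libraries, against 97 and 91 in total RNA. Nearest to the Zcchc11 lead circle was one on chromosome 19 from 45012855 to 45022542 (distance 0.67), with 0 reads in both RPAD libraries, against 32 and 97 in total RNA. Nearest to the Dhx15 lead circle, at a distance of 0.12, was an 8-exon circle on another chromosome with 0 reads in both RPAD libraries, against 40 and 47 in total RNA. A circle on chromosome 5 from 24853179 to 24859226 with 0 reads in both RPAD libraries, against 35 and 31 in total RNA, was the second nearest to it at 0.70. Every circle named here is at 0 in RPAD like the lead circles, so the distance measures only how near their total RNA levels are.

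The comparable circles with the fewest RPAD reads above 0 had lower total RNA levels than the lead circles, which were chosen as abundant. The 8 comparable circles of other hosts at 0 in both RPAD libraries went down to a mean of 764 RPM in total RNA. At the low end these 8 and the circles listed in RPAD thus overlapped in total RNA level. At the high end, the 11 comparable circles above the Ripk2 lead circle were all listed in RPAD. The part of total RNA level in the pattern was not tested. The fewest were the 1 and 0 RPAD reads of the circle at chromosome 4, 120855211 to 120862863, against 21 and 41 in total RNA (mean 840 RPM). Next was chromosome 2, 76688627 to 76692524, a circle of the titin locus. RPAD gave it 0 and 6 reads and total RNA 22 and 37 (mean 797 RPM). Also in the titin locus on chromosome 2, 76678290 to 76685865 gave 0 and 7 in RPAD, against 48 and 28 in total RNA (mean 1007 RPM). Outside that locus, 2 further circles likewise had 7 RPAD reads. The Dhx15 circle, the lowest of the 4, averaged 1184 RPM.

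**Figure D3:**
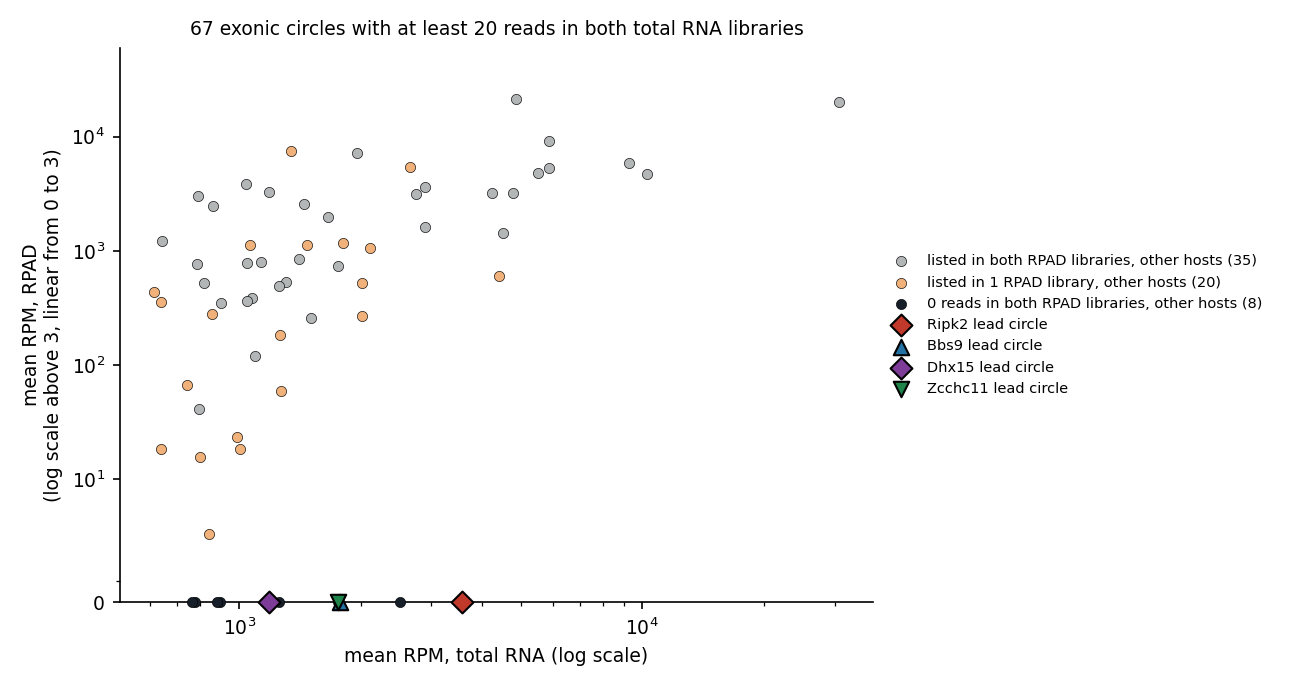
Mean RPM in RPAD (vertical axis, log scale above 3 and linear below) against total RNA (horizontal axis, log scale) for the 67 comparable exonic circles. The 4 lead circles lie on the zero line with 8 circles of other hosts, and the Ripk2 circle is the one farthest to the right there, at 3573 RPM in total RNA.

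A read count of 0 in 1 RPAD library was common even for circles read often in the other. RPAD 2 had no read of 68.9% of the exonic circles that reached 20 reads in RPAD 1, and the reverse share was 73.6%, against 27.3% and 28.7% between the total RNA libraries. The part of this in the absence of the 4 lead circles was not tested. The Zcchc11 circle of exons 3 and 4 (270 and 0 reads), the intronic circles of Dhx15 (21 and 0) and the small Bbs9 circle (0 and 18) were each listed in 1 RPAD library.

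Some circles of the 12 had a relative in RPAD with 1 end in common. Such relatives were listed for 5 of the 12, and for 40 of the 55 comparable circles that RPAD did list. Zcchc11 was the only one of the 4 hosts among the 5. The largest case was outside the 4 hosts: for a circle at chromosome 19, 53887738 to 53909269, relatives gave 0 and 2889 reads in RPAD 1 and 2, while that circle itself had 0 and 0 in RPAD, against 20 and 72 in total RNA. The Ripk2, Bbs9 and Dhx15 lead circles had no exonic circle with either end in common in RPAD.

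In structure the 4 lead circles lay inside the range of the comparable circles. Their spliced lengths of 545 (Ripk2), 630 (Dhx15), 786 (Bbs9) and 869 nt (Zcchc11) stand beside a median of 846 nt (range 224 to 5866) for the 55 circles listed in RPAD and 786 nt for all 67. They hold 4, 2, 7 and 1 exons in the same order of hosts, against a median of 4. Ripk2 and Dhx15 circles begin at exon 2 of their transcript, as do 33 of the 67 (49.3%), and the Bbs9 and Dhx15 lengths are multiples of 3, as are 26 of the 67 (38.8%).

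Flanking introns differed more among the 4. The introns before and after the circle sum to 17455 nt for Ripk2, 14774 nt for Dhx15, 25384 nt for Zcchc11 and 119647 nt for Bbs9. The median was 34209 nt for the 55 circles listed in RPAD and 33206 nt for the 66 of 67 with both introns annotated. Ripk2, Dhx15 and Zcchc11 were therefore below the median, while Bbs9 stood 7th from the top through its downstream intron, which only 2 of the 67 exceeded. The upstream introns of Ripk2 (4793 nt), Bbs9 (4961 nt) and Dhx15 (5376 nt) were of like length, against a median of 17385.5 nt, and that of Zcchc11 was 18672 nt. The downstream intron of the Zcchc11 circle depended on the transcript model: it was 6712 nt in the total RNA 1 file, used here, and 937 nt in the total RNA 2 file.

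**Figure D4:**
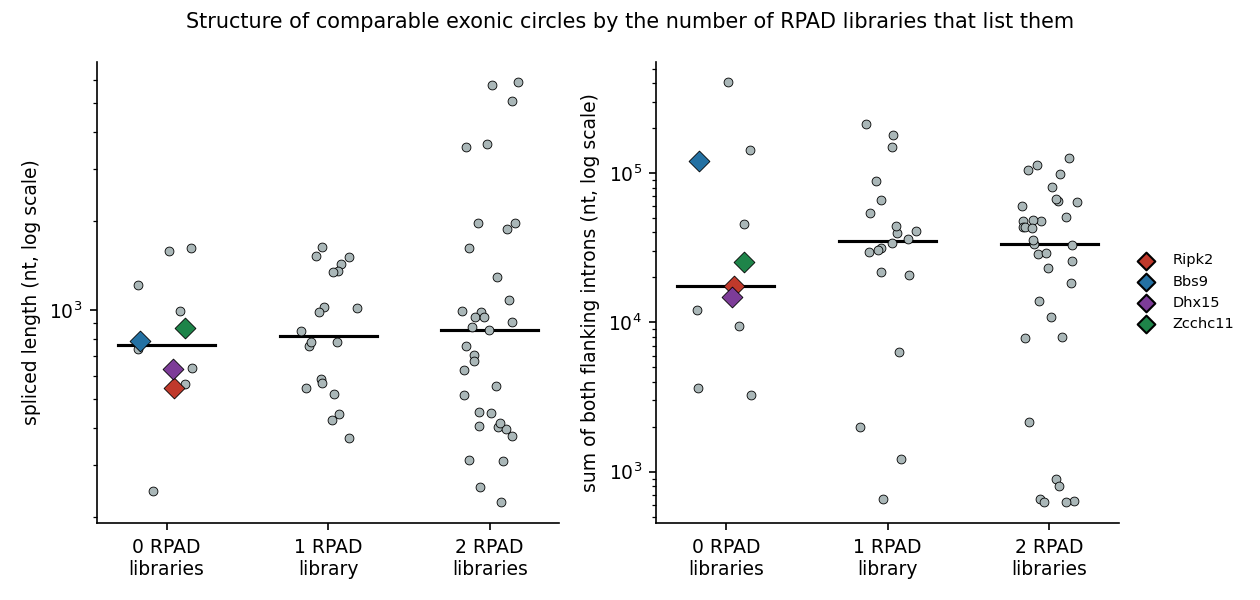
Spliced length (left) and sum of both flanking introns (right), each in nt on a log scale, for comparable exonic circles grouped by the number of RPAD libraries that list them; bars are medians and diamonds the 4 lead circles. The lead circles lie among the other circles in both panels, with Bbs9 at 119647 nt near the top of the right panel.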

How the data were processed

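Back-splice junctions of 4 C2C12 libraries were analysed, 2 of RPAD RNA and 2 of total RNA, grouped and numbered by their titles. Libraries were made after removal of ribosomal RNA, with NuGEN cDNA amplification and 17 PCR cycles, and run on a HiSeq2500, per the labels' protocols. The mm9 genome and the tools cutadapt, TopHat and Cufflinks 2.2.1 are named in the submitters' processing notes; the sources used here do not name the circle caller. The deposited values are raw counts of back-splice reads per circle, per the file headers, with no circle under 1 read. A score of 0 to 3 per junction is also deposited, per the file headers, and served in 1 alternative.

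Circles were matched between libraries by strand and both ends, with positions counted from 1. A circle had 0 reads in a library that did not list it. Counts were divided by all back-splice reads of the library. Where the transcript models of the total RNA files differed, the structure in total RNA 1 was used. No model was fitted: the hosts and lists were chosen with earlier results of these data known, so the contrast carries no test. Named circles were the lead circle of each host, its other exonic circles with at least 2 reads, its intronic circle with most reads, any circle in RPAD, the nearest 3 circles by distance over 4 libraries, the comparable circles at 0 in RPAD, and the 3 with fewest RPAD reads above 0. Not all of the nearest and comparable circles are printed. Circles with 1 read in the 4 loci were named in addition. Bounds used a floor of 3 reads in RPAD and the total RNA reads as observed. Counting code was checked on simulated tables. The tools were pandas 2.3.3, numpy 2.4.6, scipy 1.17.1 and matplotlib 3.10.9 in Python 3.11.15. Alternatives changed the junctions kept, the divisor, the floor, the read minimum, the match of circle ends, the strand and the libraries used.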

Additional observations from a re-analysis of the deposited data

How the results depend on the processing

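Of 69 alternative values, 43 stayed within the spread or the counting interval of the value reported and 26 moved. The 43 include every host level, lead share and fold bound computed with 1 total RNA library left out. Those values could not move, because the SD of a pair is never smaller than the distance of either value from their mean. The pooled fold bounds lie near that mean. The tally is therefore not a measure of how stable the results are. The share of comparable circles at 0 in both RPAD libraries, 17.9%, was 40% with a minimum of 5 reads, 30.6% with 10 and 16.7% with 40; it was 10.4% when 1 equal end sufficed and 29.9% to 46.0% with 1 library left out. A lower read minimum admits circles with fewer reads, and a library left out relaxes one condition, by construction.

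Bounds of the fold halved with 3 reads allowed in each RPAD library: 204 for Ripk2, 101 for Bbs9, 67 for Dhx15 and 98.9 for Zcchc11. With 1 library left out they ran from 180 to 431 for Ripk2, 89.2 to 209 for Bbs9, 59.0 to 158 for Dhx15 and 87.1 to 256 for Zcchc11 and the lowest of each was without RPAD 2. Scaling by exonic reads left each within its spread.

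Reads of both circle types in total RNA were 3599 RPM for Ripk2, 2594 for Bbs9, 1184 for Dhx15 and 2160 for Zcchc11. Scaled to exonic reads they were 8535, 6123, 2799 and 5100, since the divisor is smaller. With score 0 alone they were 4706, 3376, 1543 and 2795, where the divisor is smaller too. The lead circle's share of Ripk2 reads was 99.3% with intronic circles counted. With 1 library left out, host levels ran from 3363 to 3835, 1853 to 3335, 978 to 1390 and 1596 to 2724, and the lead share from 66.7% to 93.1% for Bbs9 and 79.0% to 82.7% for Zcchc11.

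RPAD reads at the 4 loci, 309 in all, were 18 without RPAD 1 and 291 without RPAD 2; counting overlapping circles or both strands left them at 309. No paired analysis was possible because the hosts were chosen on this contrast and the results come from no test. Libraries of 35981 to 191246 back-splice reads limit what a count of 0 can show.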
